A study of Mus musculus with 2 samples.

Results

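The GIMAP genes (GTPases of the immunity-associated protein family) listed in both single-cell matrices were Gimap1, Gimap3, Gimap4, Gimap5, Gimap6, Gimap7, Gimap8 and Gimap9, which are 8 of the 28009 listed genes. They were taken by family name and not by a cut on their values, though with earlier results of these data known. All 8 are described here in every cell state. GIMAP proteins are GTP-binding proteins found mainly in lymphocytes, where several of them sit on intracellular membranes. They are best known for keeping resting T cells alive: loss of GIMAP5 or GIMAP1 depletes peripheral T cells, GIMAP4 has been linked to the course of T cell apoptosis, and GIMAP6 binds a protein of the GABARAP family that acts in autophagy. GIMAP3 is the closest relative of GIMAP5, GIMAP7 is a GTPase that can pair with other GIMAP proteins, and GIMAP8 carries more than 1 GTPase domain.

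The cells came from IL-10eGFP Foxp3mRFP double reporter mice aged 8 to 16 weeks, which received 15 µg of anti-CD3 antibody on day 0 and again on day 2 with tissues taken 4 h after the second dose. IL-10+ CD4+ T cells, with Foxp3+ cells included, were sorted by their eGFP from spleen and from small intestine. 10x Genomics Chromium captured 1 library per tissue, so the groups share genotype and treatment and differ in tissue and library. The study's methods describe warm EDTA and collagenase steps and a Percoll gradient for mouse intestine, and no digestion for spleen. Tissue, cell isolation and library therefore cannot be told apart in any ratio between the tissues. The number of mice behind each library is not given in the sources used here. No replicate check of any difference was possible, no test was run, and all intervals below are exact 95% intervals that cover counting error only.

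The spleen library held 1738 barcodes and 11103530 UMIs (unique molecular identifiers, each standing for 1 captured RNA molecule), and the small intestine library held 1474 barcodes and 5693395 UMIs. The quality filter kept 1648 and 1339 cells, and the libraries shared 0 barcodes. The median cell had 5532.5 UMIs in spleen and 3618.5 in small intestine before the filter. The T cell genes Cd3e, Cd3d and Cd4 together reached 2241 CPM (UMIs per 1000000 UMIs of the group) in spleen and 2788 CPM in small intestine, and at least 1 of them was seen in 99.7% of cells of either tissue. Trac is not listed in the matrices. The B cell list summed to 6.11 CPM in spleen and 13.4 CPM in small intestine, and the red cell list to 3 UMIs and 0 UMIs. The myeloid list, whose Csf1r had no UMI in spleen and Lyz2 none in small intestine, summed to 171 and 148 CPM and was seen in 59.2% and 42.6% of cells. The CD8 genes Cd8a and Cd8b1 summed to 371 CPM in small intestine and to 12.8 CPM in spleen, where Cd8a had no UMI. Values without the cells that carry CD8 transcripts are given where they touch a result.

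All 8 members lie side by side on chromosome 6, between 48647234 and 48770851 of GRCm38, a stretch of 123.618 kb. Of these genes, 6 are read from the plus strand, while Gimap6 and Gimap3 are read from the minus strand. Gimap5 and Gimap3 are the most alike: their longest open reading frames were 92.7% identical over 891 aligned bases, and their transcripts shared 190 windows of 50 bases, with 0 of them in the last 500 bases, where 3′ libraries place most reads. No other pair shared a window of 50 bases, so reads of these other members were separable at that length. The listed gene Gm28053 overlaps Gimap7, Gimap1 and Gimap5 on the same strand and had 22 UMIs in spleen and 24 in small intestine, so a read from a shared exon could not be assigned to 1 gene. The transcript Gimap1os lies on the opposite strand of Gimap1 and is not listed in the matrices used here.

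Promoters are shown for 4 members because these pairs moved apart in the data below: Gimap5 and Gimap3, which have like coding sequences but differed between the tissues, and Gimap7 and Gimap1, which ran in opposite directions in some splenic gradings, among them total UMIs and the naive gene list, and in the same direction in others. Each window runs from 250 bases before to 50 after the gene start (RefSeq, GRCm38.p6), 5′ to 3′ on the gene's own strand. Capitals mark matches on either strand to CACCC, the core bound by KLF factors, TGTGGT, bound by RUNX factors, GGAAGT, bound by ETS factors, TGACTCA, bound by AP-1, or GTAAACA, bound by FOXO factors.
Gimap5, chr6:48745947-48746246, plus strand: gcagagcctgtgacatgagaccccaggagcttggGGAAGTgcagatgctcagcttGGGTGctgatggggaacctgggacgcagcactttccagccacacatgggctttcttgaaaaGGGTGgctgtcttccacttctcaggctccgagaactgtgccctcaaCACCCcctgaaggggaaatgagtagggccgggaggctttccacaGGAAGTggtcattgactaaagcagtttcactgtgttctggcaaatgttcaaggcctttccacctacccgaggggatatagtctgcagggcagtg
Gimap3, chr6:48770802-48771101, minus strand: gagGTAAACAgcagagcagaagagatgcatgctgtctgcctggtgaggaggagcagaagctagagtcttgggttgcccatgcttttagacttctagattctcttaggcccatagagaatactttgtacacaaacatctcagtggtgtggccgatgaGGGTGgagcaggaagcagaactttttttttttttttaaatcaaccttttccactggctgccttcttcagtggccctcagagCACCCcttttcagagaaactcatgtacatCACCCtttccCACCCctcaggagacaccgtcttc
Gimap7, chr6:48718371-48718670, plus strand: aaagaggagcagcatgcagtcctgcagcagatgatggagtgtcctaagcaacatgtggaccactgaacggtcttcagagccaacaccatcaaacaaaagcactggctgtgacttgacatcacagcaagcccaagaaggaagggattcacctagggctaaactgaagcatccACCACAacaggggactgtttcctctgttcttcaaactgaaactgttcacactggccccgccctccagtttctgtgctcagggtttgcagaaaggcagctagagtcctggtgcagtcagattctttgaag
Gimap1, chr6:48738797-48739096, plus strand: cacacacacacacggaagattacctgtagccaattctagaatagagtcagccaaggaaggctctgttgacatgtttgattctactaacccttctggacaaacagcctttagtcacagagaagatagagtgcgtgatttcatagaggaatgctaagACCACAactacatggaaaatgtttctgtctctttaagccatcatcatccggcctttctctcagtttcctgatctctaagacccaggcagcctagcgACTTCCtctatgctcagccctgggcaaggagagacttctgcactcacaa
The Gimap5 window held 3 CACCC and 2 GGAAGT matches, and the Gimap3 window held 4 CACCC matches and 1 GTAAACA match. Gimap7 had 1 TGTGGT match, and Gimap1 had 1 TGTGGT and 1 GGAAGT match. Over the 9 windows of the 8 members, since Gimap8 has more than 1, CACCC occurred in 5 genes, against 57.5% of all 32851 promoters. TGTGGT occurred in 3 genes (16.8% of all promoters), GGAAGT in 4 (23.8%), GTAAACA in 1 (3.65%) and TGACTCA in 0 (5.20%). A match describes letters in the window and not binding.

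GIMAP transcripts were present in nearly every sorted cell. Members made up 0.375% of all UMIs in spleen and 0.423% in small intestine, and 1647 of 1648 splenic and 1338 of 1339 intestinal cells had at least 1 GIMAP UMI. All 8 members were seen together in 243 splenic and 131 intestinal cells. No cell type without GIMAP expression was present to measure the share that free RNA gives, so that background was not measured. UMI counts at the 3′ end are not scaled by length. Capture may differ between genes and was not measured, so levels of different members are not ranked.

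Cells were divided into 3 states within each tissue, none of which used a GIMAP value. Cycling cells had at least 2 UMIs and at least 0.1% of their UMIs from 15 proliferation genes such as Mki67, Top2a and Birc5, and the other cells were called Ccl5-high at 20 or more Ccl5 UMIs per 10000. Ccl5 encodes a chemokine of effector T cells. Spleen had 419 cycling (25.4% of kept cells), 167 Ccl5-high (10.1%) and 1062 Ccl5-low cells (64.4%). Small intestine had 101 cycling (7.54%), 1088 Ccl5-high (81.3%) and 150 Ccl5-low cells (11.2%). Within a factor of 2 of a cut lay 180 and 66 cells for cycling and 78 and 85 cells for Ccl5 in spleen and small intestine.

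**Figure D1:**
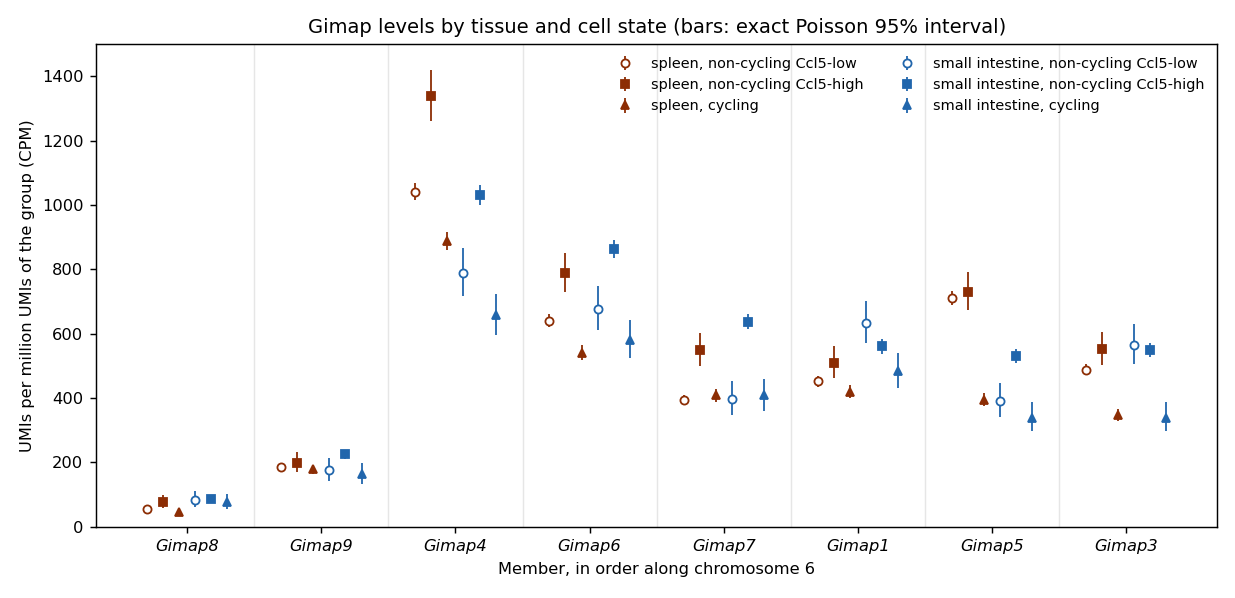
Level of each member (CPM, y axis) in 3 cell states of spleen (brown) and small intestine (blue), with exact Poisson 95% intervals. Gimap4 reached 1339 CPM in splenic Ccl5-high cells, and Gimap5 lay at 394 CPM in splenic cycling cells against 711 CPM in splenic Ccl5-low cells.

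The summed GIMAP level was highest in Ccl5-high cells and lowest in cycling cells of either tissue. It was 4742 CPM (4594 to 4893) in splenic and 4483 CPM (4419 to 4547) in intestinal Ccl5-high cells. Ccl5-low cells followed, with 3967 CPM (3917 to 4018) in spleen and 3713 CPM (3557 to 3873) in small intestine. Cycling cells had 3221 CPM (3166 to 3277) in spleen and 3047 CPM (2915 to 3184) in small intestine, and only this last pair of neighbours in the order had overlapping intervals.

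Over all cells, the family was slightly higher by CPM in small intestine than in spleen. With Ccl5 counted in the denominator, the ratio turned slightly negative when each state was compared by itself. The sum was 4227 CPM in small intestine and 3748 CPM in spleen, a log2 ratio of 0.17 (0.15 to 0.20). Between Ccl5-high cells of both tissues the log2 ratio was -0.08 (-0.13 to -0.03), between Ccl5-low cells -0.10 (-0.16 to -0.03) and between cycling cells -0.08 (-0.15 to -0.01). Ccl5 itself took 573 of 10000 UMIs in intestinal and 258 in splenic Ccl5-high cells, and it counts in the CPM denominator. The ratio between Ccl5-high cells without Ccl5 in the denominator was not computed, so its small negative value may depend on that gene. Counted as UMIs per cell, the sum was 17.1 in small intestine and 24.6 in spleen, also lower in small intestine, where cells were sequenced to fewer UMIs. The mix of states beside this was 81.3% Ccl5-high and 7.54% cycling in small intestine against 10.1% and 25.4% in spleen. Without cells with a Cd8a or Cd8b1 UMI, the sum in Ccl5-high cells was 4666 CPM in small intestine and 4720.3 CPM in spleen. These values lie closer together than the 4483 and 4742 CPM of all Ccl5-high cells, and an interval for their ratio was not computed.

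Members did not move as 1 block between the tissues. Gimap8 was 85.6 CPM in small intestine and 53.3 CPM in spleen, a log2 ratio of 0.69 (0.51 to 0.86), and was the 1 member of 8 past a 1.5-fold higher level over all cells. Of all 9288 genes with at least 50 UMIs in this comparison, 21.4% were at least 1.5-fold higher in small intestine and 23.8% at least 1.5-fold lower, while 0 members were that much lower. Gimap7 (584 against 411 CPM, log2 ratio 0.51), Gimap6 (810 against 615 CPM, 0.40), Gimap1 (559 against 444 CPM, 0.33), Gimap3 (525 against 440.0 CPM, 0.25) and Gimap9 (212 against 184 CPM, 0.20) were also higher in small intestine by CPM. Gimap5 ran the other way at 492 CPM in small intestine and 594 CPM in spleen, a log2 ratio of -0.27 (-0.34 to -0.21). Gimap4 was close to level at 960.2 CPM and 1006 CPM, a log2 ratio of -0.07 (-0.12 to -0.02). By UMIs per cell all 8 were lower in small intestine, with Gimap8 nearly level at 0.347 and 0.349 UMIs per cell. Intestinal cells had fewer total UMIs, and the share of all genes lower on that scale was not computed.

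Within each of both non-cycling states, Gimap5 and Gimap4 were lower by CPM in small intestine. Gimap8, Gimap6, Gimap7 and Gimap1 pointed up in both states, several with intervals that included 0. Gimap9 and Gimap3 changed sign between the states. The Ccl5 cut did not make cells of a state alike between the tissues. Ccl5-high cells had 258 Ccl5 UMIs per 10000 in spleen and 573 in small intestine, and 6.07 against 373 CPM of the CD8 genes. In Ccl5-low cells Gimap5 was 391 CPM in small intestine and 711 CPM in spleen, a log2 ratio of -0.86 (-1.06 to -0.67), the 1 member there at least 1.5-fold lower, against 19.4% of 7352 genes. Gimap8 was at least 1.5-fold higher there (83.5 against 55.3 CPM, log2 ratio 0.59, 0.12 to 1.03), as were 22.8% of genes, and rested on 48 intestinal UMIs. Gimap1 stood at 633 CPM against 452 CPM, a log2 ratio of 0.49 (0.33 to 0.65), and Gimap4 at 789 CPM against 1041 CPM, a log2 ratio of -0.40 (-0.54 to -0.26). The Ccl5-low intervals of Gimap6 (0.08, -0.07 to 0.23), Gimap7 (0.01, -0.19 to 0.21) and Gimap9 (-0.09, -0.40 to 0.21) included 0. In Ccl5-high cells 0 members passed 1.5-fold in either direction, where 20% of 6782 genes were higher and 16.5% lower. There Gimap5 was 530.0 CPM in small intestine and 731 CPM in spleen (log2 ratio -0.46, -0.59 to -0.33) and Gimap4 1031 CPM against 1339 CPM (-0.38, -0.47 to -0.28). Gimap7 (638 against 549 CPM, 0.22, 0.07 to 0.36) and Gimap6 (863 against 788 CPM, 0.13, 0.01 to 0.25) were higher in intestinal Ccl5-high cells, whereas the intervals of Gimap1 (0.14, -0.01 to 0.29), Gimap8 (0.19, -0.20 to 0.60) and Gimap9 (0.17, -0.07 to 0.42) included 0. Gimap3, the near relative of Gimap5, was level between the tissues in Ccl5-high cells at 549 and 551 CPM (log2 ratio -0.01, -0.15 to 0.14) and not lower in Ccl5-low cells (565 against 488 CPM, log2 ratio 0.21, 0.04 to 0.38).

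The share of cells with a UMI followed depth as well as level. Gimap5 was seen in 90.6% of cells in spleen and 76.8% in small intestine, and in 65.0% and 58.2% once each cell was thinned to 2000 UMIs, which left out 24 and 109 shallower cells. For Gimap7 the deposited counts gave 76.2% in spleen and 81.8% in small intestine, and the thinned counts gave 50.1% and 64.8%. For Gimap6 the order turned with thinning, from 93.8% and 91.5% to 69.95% and 80.2%. Gimap8 turned likewise, from 29.5% and 28.1% to 10.6% and 15.4%, and for both members the thinned order is that of CPM.

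**Figure D2:**
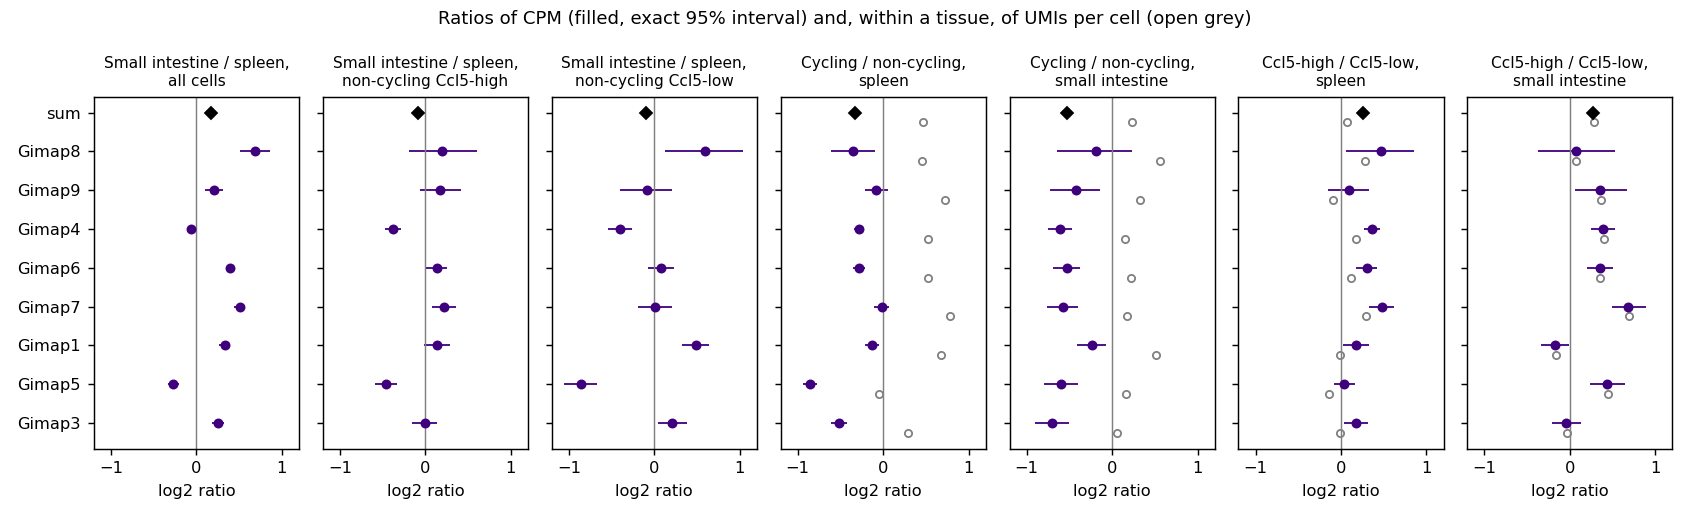
Log2 ratios of CPM (x axis, filled points with exact 95% intervals) for the sum and each member in 7 comparisons, with ratios of UMIs per cell as open grey points within a tissue. Cycling ratios of the sum lie at -0.33 and -0.53 by CPM and at 0.47 and 0.23 by UMIs per cell.

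As a share of the cell's RNA, GIMAP transcripts were lower in cycling cells of both tissues, while the number of GIMAP UMIs per cell was higher in them. In spleen the sum was 3221 CPM in cycling and 4062 CPM in non-cycling cells, a log2 ratio of -0.33 (-0.36 to -0.30), with 31.0 and 22.4 UMIs per cell (log2 ratio 0.47). In small intestine it was 3047 CPM against 4389.9 CPM, a log2 ratio of -0.53 (-0.59 to -0.46), with 19.8 and 16.9 UMIs per cell (log2 ratio 0.23). Cycling cells were deeper, with a median of 8970 total UMIs against 5007 in spleen and of 6038 against 3678.5 in small intestine. The deepest of 3 equal groups of non-cycling cells had 3755 CPM and 31.1 GIMAP UMIs per cell at a median of 7809 total UMIs in spleen, and 4237 CPM and 23.3 GIMAP UMIs per cell at a median of 4920.5 in small intestine.

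In CPM all 8 members pointed down in cycling cells of both tissues, with a median log2 ratio of -0.28 in spleen and -0.55 in small intestine, where the medians over all genes were -0.01 and -0.03. By UMIs per cell 7 of them pointed up in spleen and all 8 in small intestine. A count per cell rises with depth, and median total UMIs were 8970 against 5007 in spleen and 6038 against 3678.5 in small intestine. The share of all genes pointing up by UMIs per cell was not computed. Gimap5 stood apart in spleen: it was 394 CPM in cycling and 714 CPM in non-cycling cells, a log2 ratio of -0.86 (-0.94 to -0.77), and at 3.79 and 3.93 UMIs per cell it was the 1 splenic member without a higher count per cell. Its share of all GIMAP UMIs was 12.2% in cycling and 17.6% in non-cycling splenic cells. It was the 1 splenic member at least 1.5-fold lower, as were 9.92% of 8479 genes, and 0 members were at least 1.5-fold higher, as were 13.6%. Gimap3 followed with 347 against 496 CPM, a log2 ratio of -0.52 (-0.61 to -0.42). Gimap7 was level at 408 and 413 CPM (log2 ratio -0.02, -0.11 to 0.07) and Gimap9 nearly so at 178 and 188 CPM (-0.08, -0.21 to 0.05). Gimap8, Gimap4, Gimap6 and Gimap1 lay between, at log2 ratios of -0.35, -0.28, -0.28 and -0.13.

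In small intestine 3 members were at least 1.5-fold lower in cycling cells, against 15.1% of 7095 genes, and 0 were that much higher, against 15.2%. These were Gimap3 (339 against 551 CPM, log2 ratio -0.70, -0.90 to -0.50), Gimap4 (658 against 1002 CPM, -0.61, -0.75 to -0.47) and Gimap5 (339 against 513 CPM, -0.60, -0.80 to -0.40). Gimap7, level in spleen, was 408 against 609 CPM here, a log2 ratio of -0.58 (-0.76 to -0.40). The difference between the tissues in these cycling ratios was not tested. Gimap6 (log2 ratio -0.53), Gimap9 (-0.43) and Gimap1 (-0.24) were also lower, and the interval of Gimap8 (-0.19, -0.65 to 0.23) included 0. Among the Ccl5-low cells of small intestine, a choice made after the data were seen, the cycling ratio of the sum was -0.81, resting on 17 cycling cells, and among Ccl5-high cells it was -0.41.

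**Figure D3:**
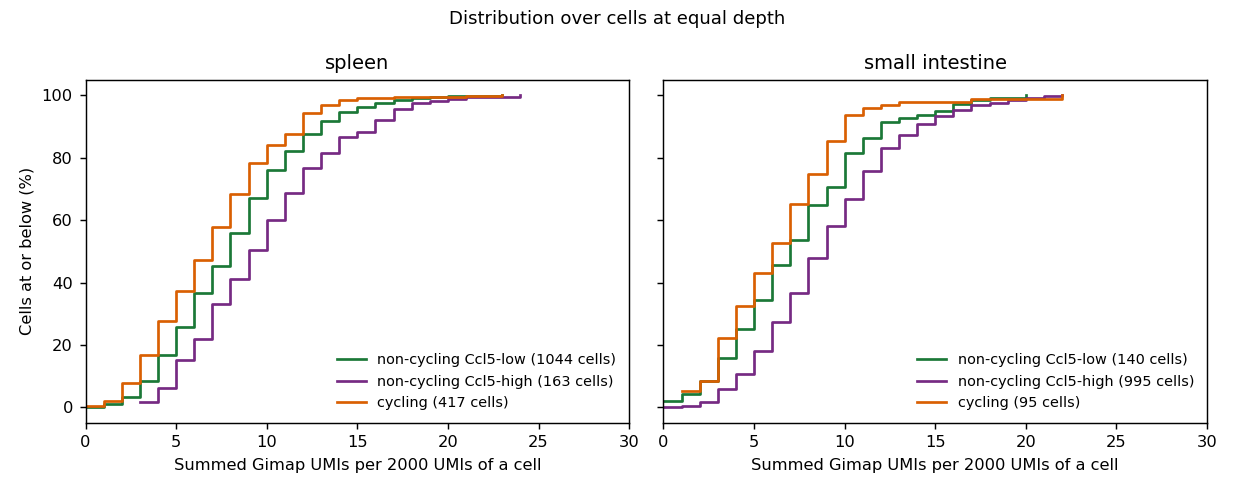
Cumulative share of cells (y axis, %) by their summed GIMAP UMIs after thinning every cell to 2000 UMIs (x axis), for 3 states in each tissue. The median cell held 9 UMIs in Ccl5-high cells of both tissues, 8 and 7 in splenic and intestinal Ccl5-low cells, and 7 and 6 in cycling cells.

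At equal depth the median cell differed between the states, and the ranges over cells overlapped. Thinned to 2000 UMIs, the median splenic cell held 9 GIMAP UMIs in the Ccl5-high state (middle 50 percent of cells 7 to 12), 8 in the Ccl5-low state (5 to 10) and 7 when cycling (4 to 9). In small intestine the medians were 9 (6 to 11), 7 (4.75 to 10) and 6 (4 to 8.5). The highest cell of each state, in the same order, held 24, 23 and 23 UMIs in spleen and 22, 20 and 22 in small intestine. The variance over the mean of the sum was 1.76 in spleen and 1.81 in small intestine, where independent sampling of 1 fixed rate would give 1, and it was widest in the 140 intestinal Ccl5-low cells, at 2.12.

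Ccl5-high cells had more GIMAP RNA than other non-cycling cells by CPM in both tissues. In spleen the sum was 4742 against 3967 CPM, a log2 ratio of 0.26 (0.21 to 0.31), with 23.4 and 22.2 UMIs per cell. In small intestine it was 4483 against 3713 CPM, a log2 ratio of 0.27 (0.21 to 0.34), with 17.3 and 14.2 UMIs per cell. Depth was alike in small intestine, with medians of 3687 and 3626.5 total UMIs, and lower for Ccl5-high cells in spleen, with 4479 and 5072.5. Gene lists used as markers of other cell types moved with the split in both tissues. Intestinal Ccl5-low cells had 60.9 CPM of the B cell list against 8.10 CPM in Ccl5-high cells, 73.0 against 6.67 CPM of the endothelial list and 276 against 128 CPM of the myeloid list. In spleen, in the same order, the endothelial list was 32.3 against 12.1 CPM and the epithelial list 39.0 against 23.1 CPM. The splenic NK cell (2.52 against 15.8 CPM) and myeloid lists (164 against 184 CPM) went the other way. The NK cell list held Ncr1, which had no UMI in spleen, Klrb1c and Eomes, with 33 UMIs over all splenic cells. The paper names Eomes among factors for the development of IL-10-producing Foxp3-negative CD4+ T cells, so this list need not mark another cell type. Foxp3, Ikzf2 and Il2ra summed to 278 against 93.6 CPM in small intestine and 431 against 381 CPM in spleen. The part of these markers in the GIMAP difference was not tested.

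In spleen all 8 members pointed up in Ccl5-high cells by CPM (median log2 ratio 0.24, against -0.02 over all genes), but 4 of them pointed down by UMIs per cell. The share of all genes pointing down by UMIs per cell was not computed. By CPM none of the 8 members reached 1.5-fold higher, against 9.01% of 7355 genes, or 1.5-fold lower, against 13.1%. Gimap7 was 549 against 394 CPM (log2 ratio 0.48, 0.33 to 0.62), Gimap4 1339 against 1041 CPM (0.36, 0.27 to 0.46) and Gimap6 788 against 640.2 CPM (0.30, 0.18 to 0.42). Gimap8 showed 76.5 against 55.3 CPM (0.47, 0.05 to 0.86) on 63 UMIs. Gimap3 (log2 ratio 0.18) and Gimap1 (0.17, 0.02 to 0.32) were slightly higher, and the intervals of Gimap9 (0.09, -0.15 to 0.33) and Gimap5 (0.04, -0.09 to 0.16) included 0.

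In small intestine Gimap7 was the 1 member at least 1.5-fold higher in Ccl5-high cells, against 10.1% of 6696 genes, and 0 were 1.5-fold lower, against 16.6%. It was 638 CPM in Ccl5-high and 396 CPM in Ccl5-low cells, a log2 ratio of 0.69 (0.49 to 0.89). Gimap5 (530.0 against 391 CPM, 0.44, 0.24 to 0.64), Gimap4 (1031 against 789 CPM, 0.38, 0.25 to 0.53), Gimap9 (225 against 176 CPM, 0.35, 0.06 to 0.67) and Gimap6 (863 against 678 CPM, 0.35, 0.20 to 0.50) were also higher. Gimap8 (0.07, -0.37 to 0.53) and Gimap3 (-0.04, -0.21 to 0.13) had intervals that included 0. Gimap1 pointed down, at 560.2 against 633 CPM, a log2 ratio of -0.18 (-0.34 to -0.01), opposite to its direction in spleen. Ccl5 took 573 of 10000 UMIs in these Ccl5-high and 8.78 in these Ccl5-low cells and counts in the denominator. Its part in the Gimap1 ratio was not tested. The median over members was 0.35, against -0.13 over all genes.

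The 191 non-cycling intestinal cells with a Cd8a or Cd8b1 UMI had a lower GIMAP level by CPM than the Ccl5-high cells without one, at 3775 against 4666 CPM (log2 ratio -0.31, -0.36 to -0.25), and were level by UMIs per cell, at 17.2 and 17.3. Gimap3 differed most, at 395 against 588 CPM (-0.57, -0.74 to -0.41), and Gimap7 least, at 614 against 643 CPM (-0.07, -0.21 to 0.07). In spleen 78 such cells had 4136 CPM against 4720.3 CPM in Ccl5-high cells without one (-0.19, -0.27 to -0.11). By UMIs per cell they had more, 26.7 against 23.0. Cd8a had no UMI in spleen, so these splenic cells were marked by Cd8b1 alone. They were deeper, with a median of 6096.5 total UMIs against 4479 in all splenic Ccl5-high cells. These splenic cells came from both Ccl5 states, with 14.3 Ccl5 UMIs per 10000 against 258 in all splenic Ccl5-high cells. Splenic Ccl5-low cells as a whole had 3967 CPM, so the splenic comparison mixes the CD8 split with the Ccl5 split. Without cells with a Cd8a or Cd8b1 UMI the intestinal Ccl5-high ratio of the sum was 0.34 in place of 0.27.

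The 197 non-cycling splenic cells with a Foxp3 UMI, the transcript of the regulatory T cell factor, had the same sum by CPM within counting error (4067 against 4060.3 CPM, log2 ratio 0.00, -0.04 to 0.04), yet differed in its makeup. Gimap7 was 573 CPM in them and 372 CPM in the 1032 cells without a Foxp3 UMI, a log2 ratio of 0.62 (0.50 to 0.74), while Gimap5 was 582 against 747 CPM (-0.36, -0.47 to -0.25) and Gimap1 411 against 470.5 CPM (-0.19, -0.33 to -0.06). By UMIs per cell the sum was 28.1 against 21.3, and Gimap5 (4.03 against 3.91) and Gimap1 (2.85 against 2.47) turned to higher, while Gimap7 was higher on both scales (3.96 against 1.95). The comparison also mixed Ccl5 states, with 5.10 Ccl5 UMIs per 10000 in cells with a Foxp3 UMI and 39.3 in those without. Splenic Ccl5-low cells as a whole had 3967 CPM, and the part of Ccl5 state in the level sum was not tested. Cells with a Foxp3 UMI were deeper, with a median of 6516 against 4770.5 total UMIs, and a missing UMI does not show that Foxp3 was absent. Also in spleen, Gimap4 was 1139 against 1062 CPM (0.10, 0.02 to 0.18) and Gimap6 618 against 668 CPM (-0.11, -0.22 to -0.00). The 27 such cells of small intestine had too few UMIs to set most members apart. Gimap4 there was 1294 against 994 CPM (0.38, 0.15 to 0.60). Intervals of the other intestinal members included 0, among them Gimap7 at 678 against 607 CPM (0.16, -0.16 to 0.47).

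**Figure D4:**
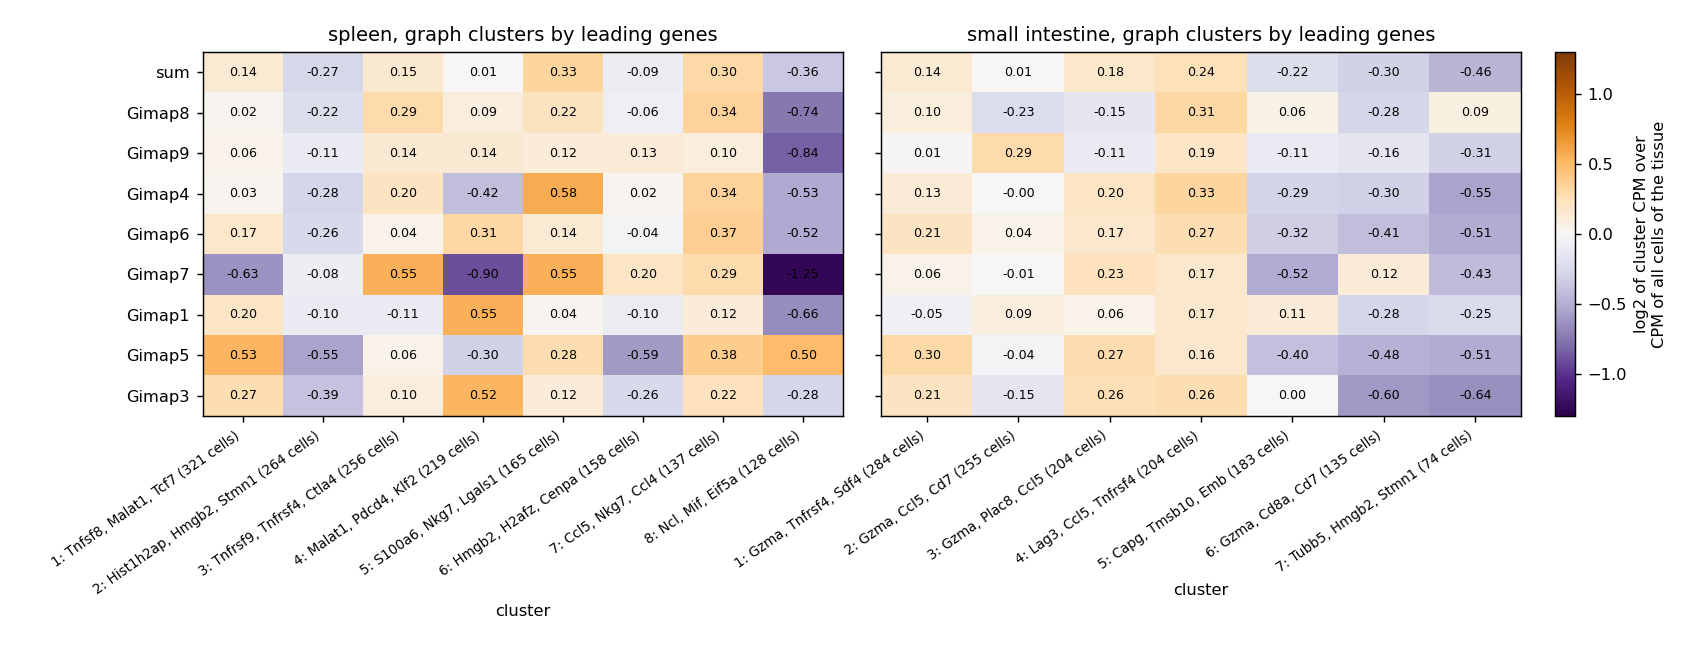
Log2 of each cluster's CPM over the CPM of all cells of its tissue (colour and printed value) for the sum and each member (rows), by graph cluster (columns, with 3 leading genes and cell number). Splenic cluster 8 is lowest for the sum at -0.36 but high for Gimap5 at 0.50, and Gimap7 spans -1.25 to 0.55.

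Graph clusters were built with every Gimap gene left out. Their levels are given by CPM only, and depth differed between them. In spleen median total UMIs ran from 3906 in cluster 4 to 9457 in the proliferating cluster 2. In small intestine they ran from 2987 in cluster 2 to 6341.5 in the proliferating cluster 7. A count per cell rises with depth, so the order of clusters by UMIs per cell, not given here, can differ from that by CPM. In spleen each of the 8 members spanned a wider range over the clusters than their sum did, and in small intestine Gimap8, Gimap9 (a factor of 1.52) and Gimap1 (1.37) spanned less than the sum (1.63). Such a range also widens with counting error, which is larger for members with few UMIs. Between neighbours in the splenic order, 7 pairs of intervals overlapped for Gimap8 and 6 for Gimap9, against 2 for the sum. In spleen the sum ran from 2917 CPM (2807 to 3030.1) in cluster 8, led by the ribosome-building gene Ncl with Mif and Eif5a, to 4696 CPM (4564 to 4831) in cluster 5, led by S100a6, Nkg7 and Lgals1, a factor of 1.61. The clusters led by proliferation genes, 2 (Hist1h2ap, Hmgb2, Stmn1) and 6 (Hmgb2, H2afz, Cenpa), followed the lowest with 3101 and 3522 CPM. Cluster 7, led by Ccl5, Nkg7 and Ccl4, had 4606 CPM and did not differ from cluster 5 beyond its interval (4446 to 4769). Clusters 1 (4130.3 CPM) and 3 (4166 CPM) likewise had overlapping intervals.

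Gimap7, Gimap1 and Gimap5 followed different splenic maps. Gimap7 ranged over a factor of 3.48, from 173 CPM (147 to 203) in cluster 8 to 603 CPM (567 to 641) in cluster 3, which was led by the costimulatory and checkpoint genes Tnfrsf9, Tnfrsf4 and Ctla4, and was also low in cluster 4 (219.8 CPM), led by Malat1, Pdcd4 and Klf2. Gimap1 was highest in that cluster 4, at 649.7 CPM (599 to 704), and lowest in cluster 8, at 281 CPM (248 to 318). Gimap3 was highest in cluster 4 too, at 633 CPM. Gimap5 was highest in cluster 1, led by Tnfsf8, Malat1 and Tcf7, at 857 CPM (810.3 to 906), and next in cluster 8, at 838 CPM (780.1 to 900.1), where 6 other members had their lowest level. It was lowest in the proliferating clusters 6 and 2, at 395 and 405 CPM. Gimap4 peaked in cluster 5 at 1503 CPM (1428 to 1580.3), and Gimap6 in cluster 7 at 794 CPM.

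In small intestine no member spanned as wide a range over clusters as Gimap7 did in spleen. The sum ran from 3069.9 CPM (2922 to 3223) in the proliferating cluster 7 (Tubb5, Hmgb2, Stmn1) to 5004 CPM (4844 to 5169) in cluster 4, led by the checkpoint gene Lag3 with Ccl5 and Tnfrsf4, a factor of 1.63. Cluster 6, led by Gzma, Cd8a and Cd7, had 3440.0 CPM and cluster 5, led by Capg, Tmsb10 and Emb and low in Ccl5, had 3633 CPM. The CD8 list reached 2191 CPM in the cluster where it was highest. Gimap4, Gimap6 and Gimap3 shared the lowest cluster 7 and the highest cluster 4 with the sum. Gimap7 was lowest in cluster 5, at 408 CPM (362 to 459), and kept 636 CPM in cluster 6. Gimap1 spanned a factor of 1.37, the narrowest of the 8 members in this tissue, and Gimap3 a factor of 1.88, the widest. Comparisons of cluster ranges between the tissues were not tested.

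Among non-cycling cells, those with more RNA from a growth program had less GIMAP RNA by CPM. The program held 14 genes of ribosome building and biosynthesis such as Ncl, Npm1 and Myc, and cells were cut into 3 equal groups by its share of UMIs. In spleen the sum was 4643 CPM in the lowest, 4250.2 CPM in the middle and 3521 CPM in the highest group, a log2 ratio of highest to lowest of -0.40 (-0.44 to -0.36), with 7 of 8 members lower. The share of all genes lower in the highest group was computed in neither tissue, so counts of members have no background here. Gimap1 differed most, from 576 to 342 CPM, and Gimap5 was the exception, at 696 and 741 CPM. By UMIs per cell the sum was higher in the highest group, 23.8 against 21.3, and depth moved with the grouping, from a median of 4314 to 6317 total UMIs. In small intestine, where depth was alike (3530 and 3730 UMIs), the sum went from 4586 to 4044 CPM (log2 ratio -0.18, -0.23 to -0.13), with 8 of 8 members lower, and from 16.4 to 16.2 UMIs per cell. The share of Ccl5-high cells moved with the grouping, from 21.7% in the lowest to 7.82% in the highest group in spleen and from 94.7% to 77.2% in small intestine, and its part in the difference was not tested.

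Other gradings gave smaller differences in the sum by CPM. By total UMIs alone, the sum went from 4472 CPM in the shallowest to 3755 CPM in the deepest splenic group (log2 ratio -0.25, -0.30 to -0.21), with Gimap1 going from 638 to 364 CPM and Gimap7 the other way, from 325 to 459 CPM. In small intestine the same log2 ratio was -0.05 (-0.10 to -0.00). By 10 early genes of T cell receptor signalling, such as Nr4a1 and Egr2, it was -0.09 (-0.13 to -0.04) in spleen and -0.00 (-0.05 to 0.05) in small intestine. Splenic depth moved with this grading, from a median of 4508.5 to 5328 total UMIs, and the splenic sum went from 20.6 to 23.4 UMIs per cell. By 7 genes of naive and recirculating T cells, such as Ccr7 and Tcf7, the splenic sum was level by CPM (log2 ratio 0.01, -0.03 to 0.05), while Gimap7 went from 478 to 337 CPM and Gimap1 from 399.8 to 549 CPM. By UMIs per cell the splenic sum went from 24.4 to 19.0. Median total UMIs went from 5571.5 to 4249 across these splenic groups, and the share of Ccl5-high cells from 24.6% to 7.09%. The parts of depth and Ccl5 state in these member differences were not tested. In small intestine cells in both lower groups had no UMI of this list, so the order within them was arbitrary and the grading was void.

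Members co-varied only weakly from cell to cell at equal depth. Over 28 pairs and cells thinned to 2000 UMIs, the median Pearson correlation was 0.04 in spleen (-0.02 to 0.14 over pairs, 1624 cells) and 0.05 in small intestine (-0.02 to 0.18, 1230 cells), positive for 27 and 26 pairs. Over all pairs of 2222 genes the medians were 0.0006 and 0.0007, and the share of those pairs that was positive was not computed. Within the Ccl5-high, Ccl5-low and cycling states, 21, 19 and 22 member pairs were positive in spleen and 23, 23 and 17 in small intestine. Over all cells the highest pair in both tissues was Gimap4 with Gimap7, at 0.14 and 0.18. Gimap7 with Gimap1 was the lowest pair in spleen, at -0.02, and -0.01 in small intestine. Gimap5 with Gimap3 had 0.02 in spleen and 0.09 in small intestine. Members were seen in the same cell 1.01 and 1.02 times as often as the product of their shares, as the median over pairs. These are descriptions from sparse counts of cells that share a library, and correlations this weak are not a finding of shared or separate control.

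Of 2222 genes with a mean of at least 0.1 UMI per thinned cell in both tissues, those most like the summed GIMAP level were named by the smaller of their correlations. They were Tnfrsf18, a costimulatory receptor (0.15 in spleen and 0.18 in small intestine), Ifngr1, a chain of the interferon gamma receptor (0.15 and 0.23), Selplg, a selectin ligand (0.18 and 0.14), Gpr171, a membrane receptor (0.14 and 0.14), and the MHC class I gene H2-D1 (0.15 and 0.14). Among the most negative were Ptma, encoding prothymosin alpha (-0.22 and -0.17), the ribosomal protein genes Rpl10 (-0.16 and -0.16) and Rplp1 (-0.13 and -0.15), and the histone gene H2afz (-0.15 and -0.14). The median over all 2222 genes was 0.01 and 0.00. No Gimap gene was among the highly variable genes of either tissue.

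A list of T cell quiescence genes, the resting state in which GIMAP proteins are best known, had a median log2 ratio of -0.67 by CPM in splenic cycling cells, against -0.28 for the members. Of 16 such genes 9 were at least 1.5-fold lower and 0 higher there, beside 9.92% and 13.6% of all genes, among them Ccr7 (35.8 against 107 CPM), Tcf7 (57.4 against 163 CPM), Pdcd4 (78.0 against 160.0 CPM) and Btg1 (672 against 1280.1 CPM). In intestinal cycling cells 6 of the 13 with enough UMIs were lower and 1 higher (median -0.52), beside 15.1% and 15.2% of all genes. In Ccl5-high cells 5 of 16 in spleen and 5 of 13 in small intestine were at least 1.5-fold lower, beside 13.1% and 16.6% of all genes, and 1 and 0 were higher, beside 9.01% and 10.1%. The median log2 ratio was -0.37 in both tissues, against 0.24 and 0.35 for the members. Tcf7 was 34.0 against 181 CPM in spleen, and Il7r 46.4 against 203 CPM in small intestine. Over all cells 8 of 16 were lower and 5 higher in small intestine than in spleen, beside 23.8% and 21.4% of all genes, with Btg2 at 451 against 117 CPM.

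Of 14 partners in survival and autophagy, 3 were at least 1.5-fold lower and 0 higher in splenic cycling cells (9.92% and 13.6% of all genes), including Bcl2, the survival factor (30.3 against 71.5 CPM). In intestinal cycling cells 2 were lower and 0 higher, a share close to the 15.1% lower over all genes. In Ccl5-high cells 2 were higher and 0 lower in each tissue, near the 9.01% and 10.1% of all genes that were higher. They were Bcl2l11, which encodes the death factor BIM (65.5 against 32.3 CPM in spleen and 178 against 67.8 CPM in small intestine), and Map1lc3a (21.8 against 11.9 CPM and 37.9 against 20.9 CPM). Over all cells 6 of the 14 were higher and 0 lower in small intestine, beside 21.4% and 23.8% of all genes. Gabarapl2, of the family that GIMAP6 binds, was 265 against 176 CPM there.

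**Figure D5:**
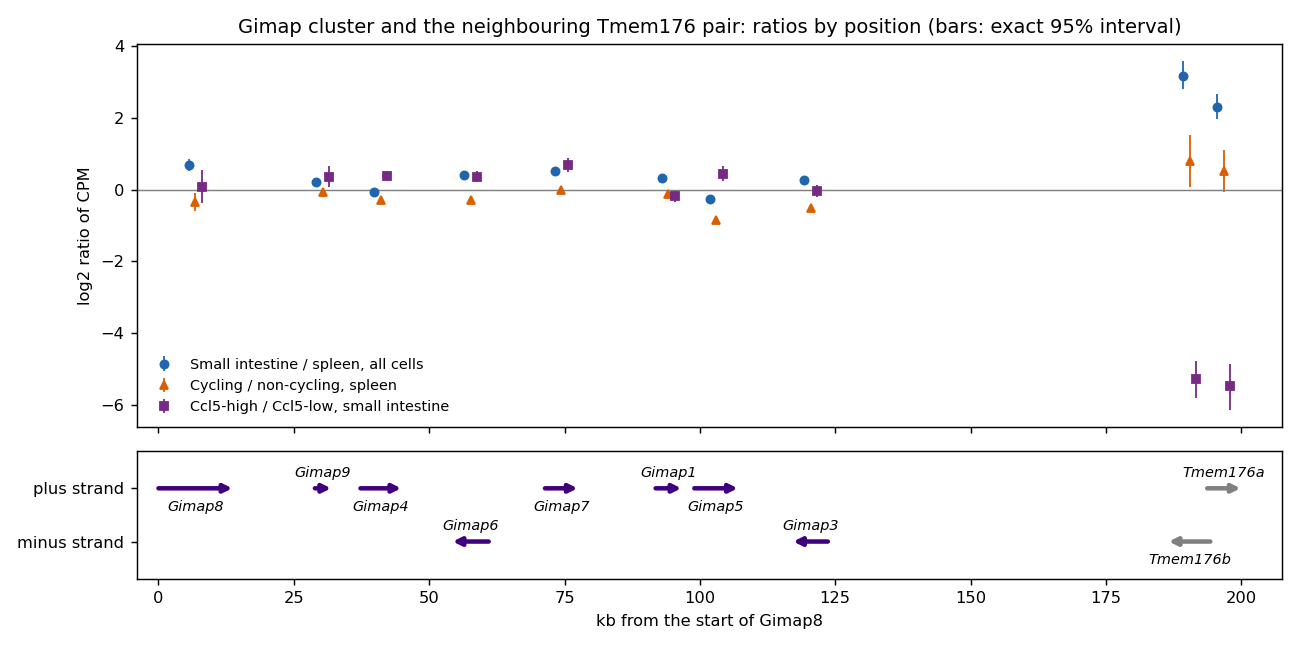
Log2 ratios of CPM (upper panel, exact 95% intervals) for 3 comparisons by position of each gene in kb from the start of Gimap8, with gene arrows by strand below. The 8 members (purple arrows) lie between log2 ratios of -0.86 and 0.69, whereas Tmem176b and Tmem176a (grey arrows) reach -5.28 and -5.48.

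Of 43 other annotated genes within 300 kb of the cluster, counting those such as Gm28053 and Gimap1os that lie within its span, 28 were listed in the matrices. Between the tissues 9 had at least 50 UMIs, of which 5 were at least 1.5-fold higher and 1 lower in small intestine, beside 21.4% and 23.8% of all genes, and 7 of the 9 pointed up. The pair Tmem176b and Tmem176a, outside the span, encodes membrane proteins of immune cells. Tmem176b was 57.6 CPM in small intestine and 6.39 CPM in spleen, a log2 ratio of 3.17, and Tmem176a 46.8 against 9.45 CPM (2.31). Within small intestine both were concentrated in Ccl5-low cells, at 351 and 276 CPM against 9.05 and 6.19 CPM in Ccl5-high cells, log2 ratios of -5.28 and -5.48, where the sum of members was at 0.27.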

How the data were processed

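Both 10x Genomics libraries were deposited as UMI counts per gene and cell. Per the labels and the study's methods, the authors trimmed the reads with Trimmomatic and aligned and counted them with Cell Ranger on mm10. The submitters' processing notes list mm8 too, and no versions. No further normalization was applied to the deposited counts.

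Barcodes beyond 3 median absolute deviations in depth, gene number or mitochondrial share were removed (90 in spleen, 135 in small intestine). Levels are UMIs of a group per 1000000 UMIs (CPM) with exact Poisson intervals, and ratios carry exact conditional binomial intervals. Shares have Clopper-Pearson intervals. These use 95% confidence. A count of 0 allows up to 3 UMIs, or 0.278 CPM in spleen and 0.552 CPM in small intestine over all kept cells. A gene entered a comparison with 50 or more UMIs over both groups and was called at 1.5-fold. Clusters came from scran 1.30.0 and bluster 1.12.0 in R 4.3.3 (10 neighbours, 20 principal components, Gimap genes left out). Scrublet in scanpy 1.11.5 marked 3 splenic and 12 intestinal barcodes as doublets, which were kept except in 1 alternative. Transcript positions came from GENCODE on GRCm38. Calls and interval coverage were checked on counts simulated from a fixed profile, with the depth of the splenic cycling comparison. Of 200 changed genes 199 were called, as were 221 of 8239 unchanged genes. The changed genes had true folds well beyond the 1.5-fold cut and came from genes with more UMIs than the entry of 50. Recovery of folds near the cut, or of genes near that entry, was not checked. Intervals held the true ratio for 95.8% of 2000 unchanged genes. These counts follow the model that the intervals assume, so the coverage does not carry over to cells that vary more than that model.

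The named genes were all 8 members, the genes of the fixed lists past 1.5-fold or as examples, and the 5 genes each side most correlated with the members. Some genes of these lists are not reported here. Members and lists were chosen with earlier results of these data known. The alternatives covered cell filters, denominators, depth, state cuts and left-out cells or members. The level per cell and cycling ratios within Ccl5 states were added after the data were seen.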

Additional observations from a re-analysis of the deposited data

Results flagged for a closer look

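Gimap1 pointed in opposite directions in Ccl5-high against Ccl5-low cells of the tissues. Its log2 ratio of CPM was 0.175 in spleen (510 against 452 CPM) and -0.1761 in small intestine (560.2 against 633 CPM), each with a counting interval that left out 0. The difference was not tested, since each tissue has 1 library. In small intestine Ccl5 took 573 of 10000 UMIs in Ccl5-high and 8.78 in Ccl5-low cells, and it counts in the denominator. The intestinal ratio of Gimap1 without Ccl5 there was not computed, so whether its interval would still leave out 0 is not known. The median over all genes in this intestinal comparison was -0.133, near the value of Gimap1. By UMIs per cell the splenic values were 2.51 and 2.53, so the splenic direction does not hold on that scale.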

How the results depend on the processing

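The log2 tissue ratio of the summed level, 0.17, turned negative among Ccl5-high cells (-0.081), among Ccl5-low cells (-0.0958) and by UMIs per cell (-0.5184). It moved to 0.227 without ribosomal protein, mitochondrial and the 20 top genes in the denominator, 0.1123 after thinning, 0.1178 as a mean over cells, 0.2258 without cells with a CD8 UMI, 0.1384 without cells with a Foxp3 UMI, 0.2425 without Gimap3 and Gimap5, 0.2531 without Gimap4 and 0.1121 in non-cycling cells. The splenic cycling ratio, -0.33, turned to 0.4681 by UMIs per cell and moved to -0.4859 with the reduced denominator, -0.2643 thinned, -0.2662 as a mean over cells, -0.2687 without Foxp3 UMI cells, -0.2021 without Gimap3 and Gimap5, -0.2843 with cycling at 0.05%, -0.1115 for cyclone G2/M against G1 and -0.2913 in Ccl5-high cells. The intestinal one, -0.53, turned to 0.2279 by UMIs per cell and moved to -0.6214 with the reduced denominator, -0.4446 as a mean over cells, -0.3288 by cyclone, -0.8134 in Ccl5-low and -0.4112 in Ccl5-high cells. The splenic Ccl5-high ratio, 0.26, moved to 0.2023 with the reduced denominator, 0.3217 without Gimap3 and Gimap5 and 0.0746 by UMIs per cell. The intestinal one, 0.27, moved to 0.3893 with the reduced denominator, 0.346 with the Ccl5 cut at 10, 0.5805 without cells between 5 and 80 Ccl5 UMIs per 10000 and 0.3828 with cycling cells. Causes of these moves were not tested. The other alternatives of these ratios stayed within the counting interval, and the median pair correlations ranged from 0.0295 to 0.0801 in spleen and 0.04 to 0.082 in small intestine. Depth limits Gimap8 most, with 465 intestinal UMIs. No paired analysis was possible because each tissue has 1 library and no test was run.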
